A study of Rattus norvegicus with 16 samples.

Results

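The cytosolic ribosomal protein genes encode the proteins of the small (40S) and large (60S) subunits of the ribosome in the cytoplasm. They were taken as every probe whose RefSeq symbol began with Rpl or Rps and a number, or was Rplp0, Rplp1, Rplp2 or Rpsa, without the S6 kinases, pseudogene names and names of -like genes. The rule used names only, and it found 74 genes among 26913 feature names on the array, 30 of the small subunit and 44 of the large one, carried by 132 of 30367 probes. Each gene was read from its brightest probe in liver. Of the 74 genes, 73 passed the filter (liver signal well above background on 3 or more arrays of any group) and were tested among 11092 such features, and all 73 were well above background on all 16 arrays. The gene left out was Rpl15, a large-subunit protein gene, whose only probe had a mean log2 level of 6.85 in liver and 7.26 in the reference.

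Liver RNA of male Sprague-Dawley rats, adults aged 78 to 86 days, was hybridized to 16 Agilent arrays read in both colours. Every array carried liver RNA in red (Cy5) and a commercial universal rat reference, a mixture of RNA from 14 rat cell lines, in green (Cy3), without dye swaps. There were 4 groups of 4 arrays, and each array held a pool of 2 rats. In group C the dams had received corn oil and reared their own pups. In group CC control litters were moved to another control dam. In group M the dams had received methylmercury, PCBs (polychlorinated biphenyls) and organochlorine pesticides together, at 1.0 mg/kg/day, from gestation to postnatal day 20, and in group MM exposed litters were moved between exposed dams. For the M arrays 1 field reads control but the others name the exposure, and the latter was followed. Pups were exposed only through their dams, none of the rats was dosed as an adult, and no label ties a pool to a litter, so p-values measure the spread between pools. C and CC lay on 1 slide and M and MM on the other, so slide and exposure cannot be told apart.

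As background, ribosomal protein mRNAs are among the most abundant in dividing cells, and most begin with an unbroken stretch of C and T at the 5′ end, the terminal pyrimidine tract, through which mTOR signalling controls their translation. The proteins are made in near-equal amounts, assembled with ribosomal RNA in the nucleolus, and degraded when in excess. A few have other roles: Rps27a is made as a fusion with ubiquitin, Rps6 is phosphorylated by the S6 kinases, and Rpl5 and Rpl11 bind Mdm2 when ribosome assembly fails. In liver, protein output is high although few cells divide.

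Of the 74 genes, 60 had a promoter in the RefSeq table (61 sequences, build GRCr8, 250 bases before to 50 after the annotated start). A C followed by 4 or more bases that were each C or T, beginning within 10 bases of the start on the gene's strand, was present in 46 of the 61 (75.4%), against 27.8% of all 33469 promoters. A longer run that reached into the search from further out was counted too, from its first C inside. On the opposite strand the shares were 16.4% and 33.6%. CTTTC in the 20 bases around the start was present on the gene's strand in 31.1% of member promoters and 2.22% of all, and on the opposite strand in 1.64% and 2.39%. Over the whole promoter and on either strand, CCGGAAG was found in 29.5% of members and 8.75% of all, GGGCGG in 59% and 33.1%, AAGATGG in 13.1% and 7.01%, and TATAAA in 11.5% and 14.2%. The windows below show 15 bases on each side of the start for the genes with the lowest and the highest liver over reference (Rplp0, Rpl38), for one with a long tract (Rpl19), and for 3 genes whose exposure difference is given below (Rpl5, Rpl28, Rpl36). Capitals mark the first C and T tract found by the search, and the window of Rpl36 holds none that meets the definition. In Rpl28 a later tract, beginning at the annotated start, also meets it and is left in lower case. In Rpl5 the run of C and T extends further upstream than the search reached, and that part is in lower case.
Rplp0: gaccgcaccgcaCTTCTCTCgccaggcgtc
Rpl38: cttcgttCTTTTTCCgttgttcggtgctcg
Rpl19: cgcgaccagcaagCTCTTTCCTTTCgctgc
Rpl5: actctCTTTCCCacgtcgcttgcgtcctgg
Rpl28: ccccgCCCCTagtgtctttctttccgtctc
Rpl36: ctgtccggccgccatcggaaagctgcaggt
They lie at chr12:46718376-46718405 on the minus strand (Rplp0), chr10:100200420-100200449 on the plus strand (Rpl38), chr10:83519049-83519078 on the plus strand (Rpl19), chr14:1995211-1995240 on the minus strand (Rpl5), chr1:78083518-78083547 on the minus strand (Rpl28) and chr9:1533765-1533794 on the plus strand (Rpl36). A match is a description of the sequence, and the arrays did not measure where transcripts began.

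All 73 ribosomal protein genes gave less signal in liver than in the reference, as did 45.1% of all tested features. Their median log2 ratio of liver over reference, averaged over the 16 arrays, was -1.87 (quartiles -2.11 and -1.63), against 0.11 for all tested features. Of the 73, 72 lay below -1, where 18.4% of all features lay. The same genes were bright in liver, with a median liver channel level of 13.96 that stood at the 96.4th percentile of all features, and brighter still in the reference, where the median of 15.85 stood at the 98.6th percentile. The ratio compares liver with a mixture of cell lines, and fewer transcripts per cell cannot be told apart from fewer cells that hold them. Liver was Cy5 on every array, so a dye effect, which was not tested, is part of every ratio. Log ratios were normalized within each array, so a level is relative to the other features.

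Both subunits had like ratios, with a median of -1.93 for the 30 small-subunit genes and -1.82 for the 43 large-subunit genes. The lowest ratios were those of Rplp0 (-2.70), the base of the P stalk that recruits elongation factors, Rpl3 (-2.64), at the peptidyl transferase centre, Rpl27a (-2.42) and Rps19 (-2.41), a gene mutated in Diamond-Blackfan anaemia. The highest were those of Rpl38 (-0.86), Rps4y2 (-1.05), Rpl10 (-1.09), a late-joining protein of the large subunit, and Rpl23a (-1.12). The second bright probe gave -1.12 for Rpl38, -0.27 for Rps4y2, -1.13 for Rpl10 and -2.04 for Rpl23a. The place of Rpl23a among the highest thus depended on the probe. Rpl38 ran from -1.0 to -0.10 in the C arrays, from -1.10 to -0.48 in CC, from -1.30 to -0.87 in M and from -1.25 to -0.55 in MM. Rplp0 ran from -2.79 to -2.25 in C, from -2.92 to -2.55 in CC, from -2.87 to -2.64 in M and from -2.85 to -2.38 in MM. The lowest Rpl38 value (-1.30) was thus above the highest Rplp0 value (-2.25), while neighbours such as Rplp0 and Rpl3 overlapped, as the plot of levels by gene shows. Members of near-identical families, such as Rps4x and Rps4y2 or the many ribosomal pseudogenes, may share hybridization.

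**Figure D1:**
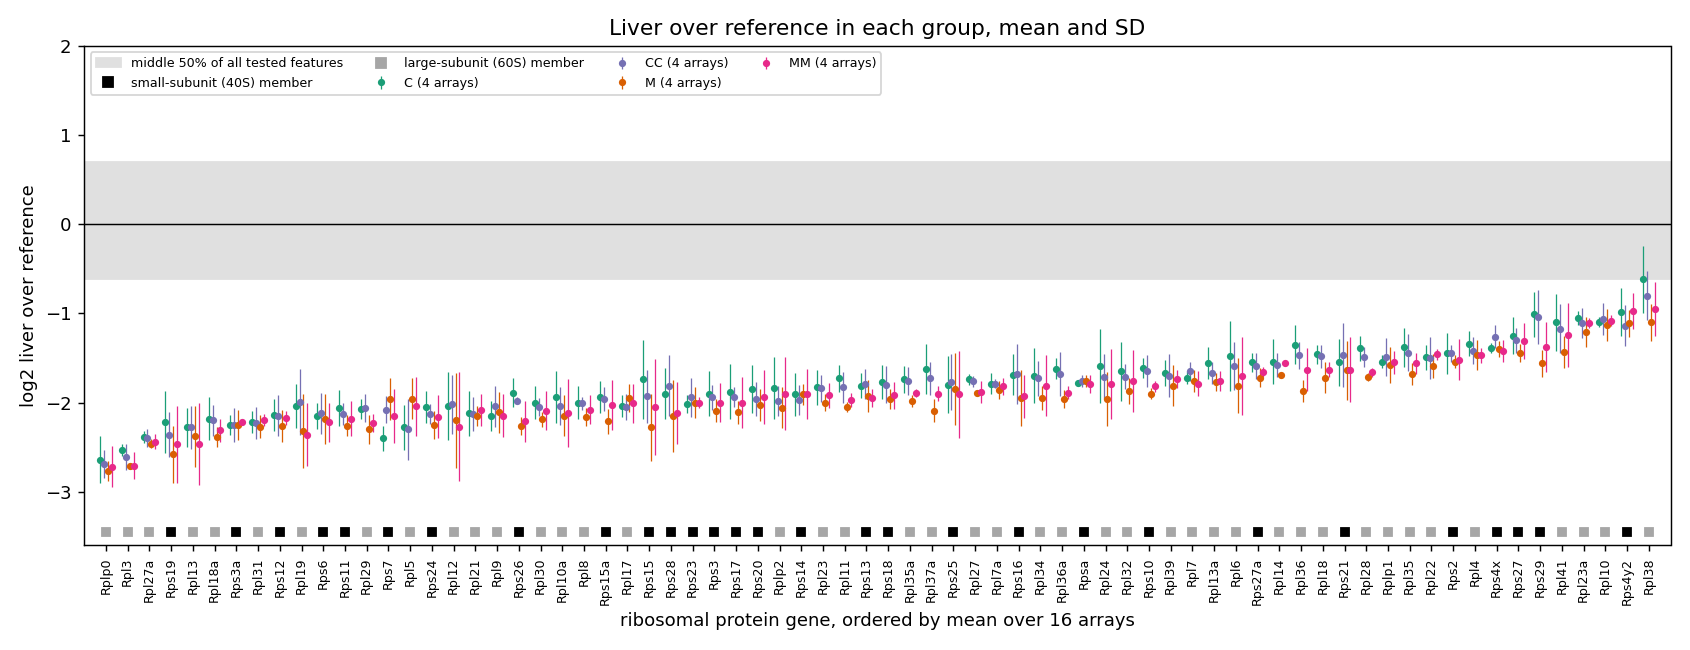
Log2 liver over reference (vertical axis) of 72 of the 73 tested ribosomal protein genes, ordered by their mean, with points for the mean and bars for the SD of the 4 arrays of each group; squares mark the subunit and the grey band the middle 50% of all tested features. Every group mean lies below 0, from about Rplp0 at -2.70 to Rpl38 at -0.86 over the 16 arrays.

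Genes that work beside the ribosome were set beside this level. The median was -0.73 for 45 translation factors, -0.24 for 52 ribosome assembly genes, -0.67 for 13 RNA polymerase I genes and -0.031 for 20 genes of the mTOR axis. Mitochondrial ribosomal protein genes, which build the separate ribosome of mitochondria, stood at 0.31, with 46 of 62 above 0. Of ribosomal proteins whose symbols fall outside the naming rule, Rack1 stood at -2.57 and Fau, the source of small-subunit eS30, at -1.37. The -like copies differed, from -2.26 for Rpl37l1 to -0.95 for Rpl22l1 and -0.064 for Rpl36al1, while Rpl36a, the parent of the last, had 3 bright probes between -1.83 and -1.58. Where a second probe of a member was bright, it lay below 0 as well, in 45 of 45 genes, and the pair differed by a median of 0.0969.

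The tissue label was checked against marker genes. All 15 hepatocyte markers were above 0 (median 6.21). Of 10 T and NK cell markers 5, and of 6 B cell markers 3, were not well above background in liver on any array. Others passed the filter: 4 T and NK cell markers (median -2.21, 1 above 0) and 2 B cell markers (median 2.83, both above 0).

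Before the groups were compared, the values were examined by position. Each slide holds 2 rows of 4 arrays, and each group has 2 arrays in each row. Row 2 minus row 1, fitted in limma with group in the model, called 29 of the 73 genes at an adjusted p under 0.05, 13 higher and 16 lower, where 42.4% of all features were called (20% higher and 22.4% lower). The share of members was near that background, and their median difference was 0.0021.

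The slide-row differences were large for single genes. Rps19 stood at -2.6 and -2.27 in the row 1 arrays of C and at -1.76 and -2.25 in its row 2 arrays, and at -2.85, -2.83, -2.2 and -2.43 in M in the same order. Rpl12 went the other way, at -1.78 and -1.74 in row 1 and -2.57 and -2.05 in row 2 of C, and at -1.71, -1.85, -2.87 and -2.37 in M. Rows 1 and 2 did not overlap within either group for either gene. The fitted difference was 0.51 ± 0.0872 (SE) for Rps19 (limma adjusted p = 0.00034) and -0.72 ± 0.109 for Rpl12 (adjusted p = 0.000137). Other genes past the threshold were Rps15 (0.62), Rpl6 (0.50), Rpl24 (0.47) and Rpl5 (0.45) on the higher side and Rps25 (-0.61), Rpl19 (-0.59), Rps28 (-0.58), Rps21 (-0.56) and Rps16 (-0.46) on the lower.

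The direction went with the place of the spot on the array. Of the tested members, 26 had a brightest probe with a single spot, and over these the row difference correlated with the spot's row (of 384) at r = -0.971, with no p, since the points share the same arrays. The difference fell by 0.33 for each 100 spot rows. With the spot rows cut into 3 equal parts, the median was 0.37 in the first, 0.019 in the middle and -0.47 in the last. Rps19 lay in spot row 44 and Rpl12 in spot row 367. Over all 3838 tested features with a single spot, r was -0.899.

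Different probes of a gene, which lie at different places, often differed in sign. Of 45 members with a second bright probe, 22 had row differences of the same sign on both probes (48.9%, all genes 52.5%), and a median gap of 0.297 lay between them. Rps15 stood at 0.62 on its brightest probe and -0.45 on the next, and Rpl38 at 0.35 and -0.48. The trend lay in the liver channel (r = -0.951), not in the reference channel (r = 0.136), where limma called none of the 73 genes (1.49% of all features) and 10 had an unadjusted p under 0.05 (17.2% of all features).

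Each array could be followed on its own. Over the 26 single-spot members, the liver channel rose with spot row on all 8 arrays of slide row 1, by 0.081 to 0.23 per 100 spot rows, and fell on all 8 of slide row 2, by between -0.35 and -0.027. Within each row of each slide the array in the first column was the steepest (CC replicate 1, C replicate 11, M replicate 5 and MM replicate 3). The reference channel moved by -0.03 to 0.019 on every array.

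**Figure D2:**
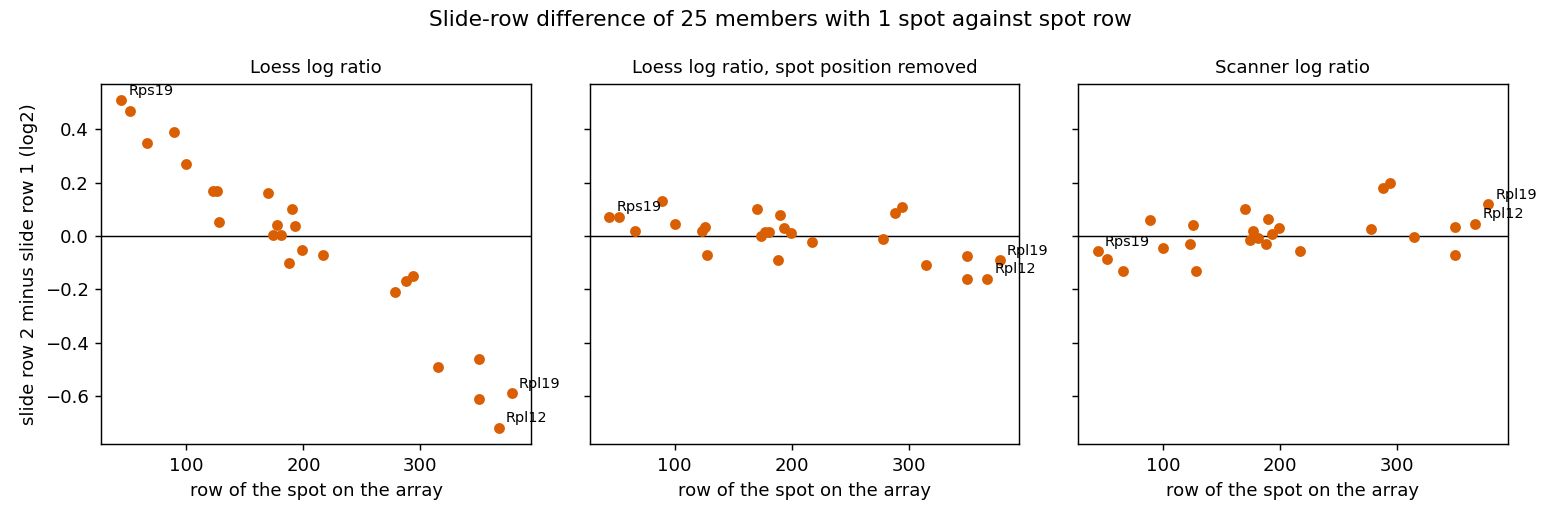
Slide row 2 minus slide row 1 (log2, vertical axis) against the row of the spot on the array (horizontal axis) for 25 of the 26 members with 1 spot, in the loess log ratio, after removal of spot position and in the scanner software's log ratio. The points run down from Rps19 (0.51) to Rpl12 (-0.72) in the first panel, and those 2 genes lie at 0.072 and -0.16 in the second and at -0.057 and 0.046 in the last.

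The comparisons between groups were run both on the loess log ratios and after a smooth surface over spot row and column had been taken off each array. The second form was added after the pattern was seen. Its surface was fitted to deviations on these same arrays, so a lower spread and fewer calls between rows follow in part from the fit. The terms of the surface are not counted in the limma errors. The second form lowered the spread between arrays of a group for 67 of the 73 genes, from a median residual SD of 0.174 to 0.12. In the loess values Rpl12 (0.476) and Rps15 (0.424) were among the largest, and they fell to 0.125 and 0.143. The smallest were Rpsa (0.0710), Rpl27 (0.0744) and Rpl27a (0.0785). With position removed, limma called none of the 73 genes between rows (1.49% of all features), and 6 had an unadjusted p under 0.05 (17.5% of all features). The scanner software's own log ratio also called none of the members and 0 of all features, with 8 members and 8.99% of all features at an unadjusted p under 0.05. Some dependence on spot row was left over the 26 single-spot members, with r = -0.625 after removal and 0.564 in the scanner log ratio.

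Fostering of control litters was examined as CC minus C. The medians of the 73 genes, each centred on its mean, were -0.049, 0.089, 0.30 and -0.018 on C replicates 9 to 12 and 0.10, 0.11, 0.11 and -0.13 on CC replicates 1 to 4. The groups overlapped, with C replicate 11 above all others. The median difference was -0.029 (21 genes above 0 and 52 below), against -0.0079 for all features, of which 46.8% lay above 0. limma called 0 of 73 genes and 0 of all features (0% called), with 1 of the 73 and 0.965% of all features at an unadjusted p under 0.05. Slide row 1 alone gave a median of 0.075 and row 2 one of -0.15. Without the first slide column the median was 0.010, and it was 0.019 in the authors' value table.

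The single member at an unadjusted p under 0.05 was Rps7, a small-subunit protein gene. It stood at -2.32, -2.44, -2.58 and -2.25 in C and at -2.08, -2.24, -1.89 and -2.13 in CC. The CC values were all above the C values, as for 0.388% of all features. The difference was 0.31 ± 0.146 (adjusted p = 1). The others at the ends of the order were Rps4x (0.13), Rpl7 (0.073), Rpl28 (-0.11), Rps4y2 (-0.16) and Rpl11 (-0.11), none past the threshold.

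Fostering of exposed litters was examined as MM minus M. The centred medians were -0.038, -0.13, -0.057 and -0.16 on M replicates 5 to 8 and -0.066, -0.10, 0.057 and -0.0053 on MM replicates 1 to 4, and the groups overlapped. The median difference was 0.072 (59 above 0 and 14 below; all features 0.0015, with 50.6% above 0). limma called 0 of 73 genes (0% of all features), with 0 of the 73 and 1.76% of all features at an unadjusted p under 0.05. The lowest p-values belonged to Rpl36 (0.24 ± 0.129), Rpl37a (0.19) and Rps15a (0.18) on the higher side and Rps7 (-0.18), Rpl17 (-0.059) and Rpsa (-0.034) on the lower. Slide row 1 alone gave -0.0089 and row 2 gave 0.16. With median centring in place of loess the median was -0.092 (all features -0.05).

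The difference between both fostering effects had a median of 0.10 (56 above 0 and 17 below; all features 0.0082, with 52.1% above 0). limma called 0 of 73 genes and 0% of all features, with 1 gene and 1.66% of features at an unadjusted p under 0.05. That gene was Rps7 (-0.50 ± 0.207), and the next were Rpl36 (0.35), Rpl37a (0.30) and Rps4y2 (0.30) above 0 and Rps4x (-0.14) and Rpl7 (-0.11) below 0. Slide row 1 alone gave -0.10 and row 2 gave 0.31, so the direction differed between rows. With median centring the median was -0.06 (all features -0.027).

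Exposure without fostering was examined as M minus C, which shares the C arrays with CC minus C. In the loess values 65 of 73 ribosomal protein genes had a difference below 0 (median -0.19), and 43.5% of all features lay above 0. With median centring in place of loess the median was 0.050 for the members and 0.065 for all features. In the loess values limma called 2 of the 73 genes, both lower and both of the large subunit. There 4.11% of all features were called and 2.56% called lower. Of the 73 genes 15 had an unadjusted p under 0.05 (17.3% of all features), and 10 had M values all below the C values (6.56% of all features).

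Rpl36, a small basic protein of the large subunit, stood at -1.51, -1.35, -1.05 and -1.5 in C and at -1.91, -1.97, -1.69 and -1.91 in M. All M arrays were below all C arrays. The difference was -0.52 ± 0.129 (limma adjusted p = 0.0351), made up of -0.18 for liver and a rise of 0.33 for the reference. Its second probe gave -0.33.

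Rpl28 stood at -1.5, -1.37, -1.20 and -1.48 in C and at -1.67, -1.71, -1.69 and -1.78 in M, again without overlap. The difference was -0.33 ± 0.0819 (adjusted p = 0.0361), split into -0.28 for liver and 0.046 for the reference. Its second bright probe gave -0.26. Leaving out C replicate 10, C replicate 11, M replicate 5, M replicate 6 or M replicate 8 brought the count of called members to 0. Leaving out C replicate 12 or M replicate 7 brought it to 1. Without CC replicate 4 or MM replicate 3, which lie outside the comparison but share its error estimate, it was 5 and 4. Shares of all features called without each array are not given, so these counts describe the members only.

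With spot position removed, limma called 18 of the 73 genes, 17 lower and 1 higher, where 13.3% of all features were called (8.82% lower and 4.44% higher). The median was -0.18, and 69 of 73 were below 0 (42.7% of all features lay above 0). Rpl36 and Rpl28 were among the 18. The other members called lower, most of them named only after their values were seen, were Rps15, Rps29, Rps26, Rpl36a, Rpl37a, Rpl38, Rpl11, Rpl19, Rpl18, Rps19, Rps27a, Rps28, Rps16, Rpl27 and Rpl29, at differences from -0.57 (Rps29) to -0.17 (Rpl27). By subunit, 7 were of the small and 11 of the large one. Of the called members with a second bright probe, Rpl19 was the only one whose second probe had the other sign. In the loess values Rpl19 stood at -0.28 on its brightest probe and 0.28 on the next. Rps26, Rpl11, Rpl18, Rps28, Rpl29 and Rpl5 had no second bright probe to compare. The 24 members whose M values all lay below the C values compare with 12.1% of all features.

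Rps29, a zinc-binding small-subunit protein gene, stood at -1.11, -0.81, -0.81 and -1.29 in C and at -1.49, -1.60, -1.51 and -1.68 in M with position removed. The lowest C array was above the highest M array. The difference was -0.57 ± 0.132 (limma adjusted p = 0.0107), split into -0.30 for liver and 0.26 for the reference. Rpl5, the Mdm2-binding member, was the single gene called higher. It stood at -2.46, -2.32, -2.20 and -2.23 in C and at -2.05, -1.92, -1.95 and -1.87 in M, without overlap. The difference was 0.36 ± 0.106 (adjusted p = 0.0367), split into 0.15 for liver and -0.20 for the reference. Rpl11, which binds Mdm2 with Rpl5, was lower at -0.32 ± 0.0858 (adjusted p = 0.0229). Rps7 lay beside Rpl5 at 0.36 ± 0.118 and missed the threshold (adjusted p = 0.0553), and unlike Rpl5 its difference lay in the liver channel (0.42, reference 0.058).

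Ranges are given for 4 members with well-known roles that passed in neither form. With position removed, Rplp0 ran from -2.80 to -2.25 in C and -2.90 to -2.69 in M, Rps6 from -2.18 to -2.07 and -2.25 to -2.08, Rpsa from -1.83 to -1.74 and -1.85 to -1.70, and Rpl22 from -1.58 to -1.22 and -1.69 to -1.57. The groups overlapped for all 4 of these genes, for Rpl22 only between -1.58 and -1.57. In the loess values the differences were -0.13 for Rplp0, -0.044 for Rplp1, -0.23 for Rplp2, 0.020 for Rpsa, -0.17 for Rps27a, -0.19 for Rps3, -0.026 for Rps6, -0.012 for Rps4x, -0.36 for Rps19, -0.19 for Rpl3, 0.32 for Rpl5, -0.029 for Rpl10, -0.32 for Rpl11 and -0.10 for Rpl22, none past the threshold. With position removed Rpl5, Rps19, Rpl11 and Rps27a passed it, and Rpl5 passed in the scanner log ratio too.

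The reference channel, which held the same commercial RNA on every array, differed between the slides too. In that channel M minus C had a median of 0.079 over the members (55 above 0 and 18 below), and limma called 17 of them higher and 3 lower, where 47.1% of all features were called (25% higher and 22.1% lower). In the liver channel the median was -0.11, limma called none of the 73 genes (0.243% of all features) and 9 had an unadjusted p under 0.05 (8.35% of all features). Of the 18 genes called with position removed, 16 were lower in the liver channel of M and 16 higher in the reference channel, and for 7 the reference difference was the larger. Rpl36a had -0.0047 in liver and 0.36 in the reference, and Rpl27 was above 0 in both channels (0.064 and 0.23).

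**Figure D3:**
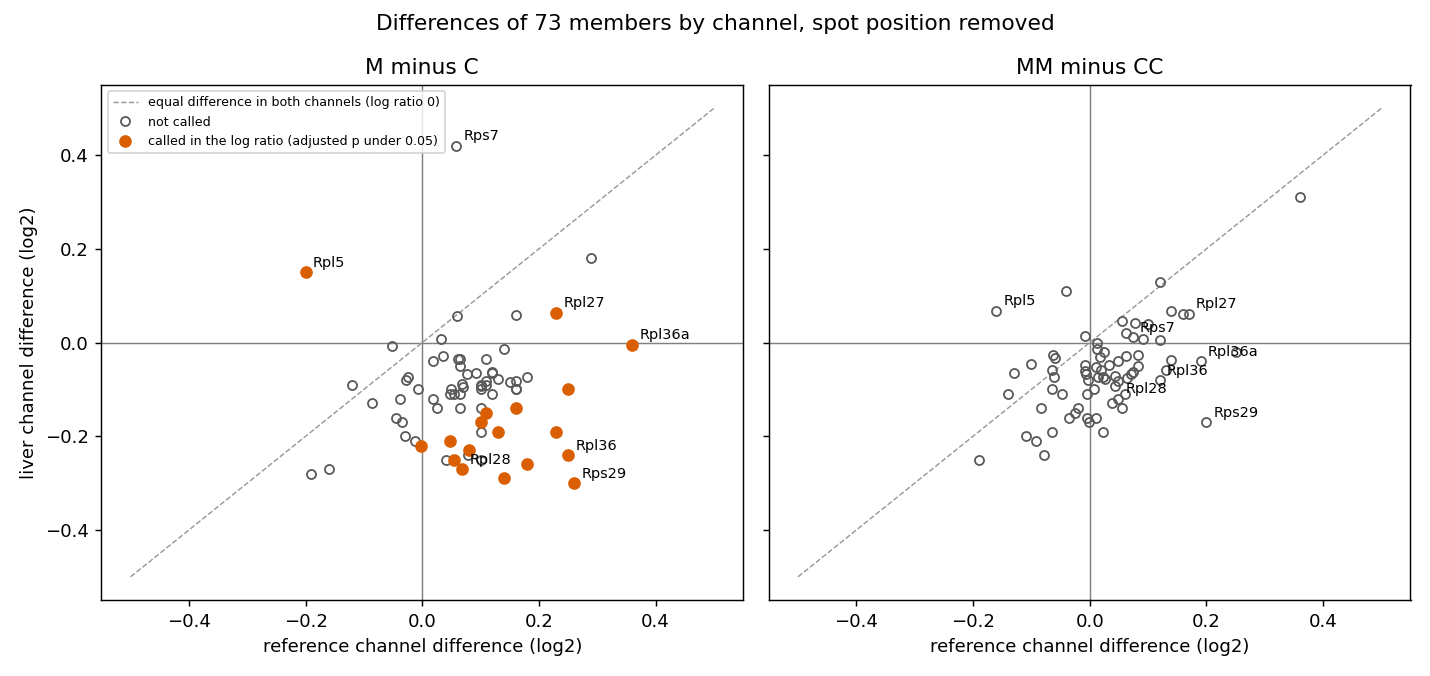
Difference of each of the 73 members in the liver channel (vertical axis, log2) and the reference channel (horizontal axis, log2), for M minus C and MM minus CC with spot position removed; filled points were called in the log ratio. In M minus C, 18 points are filled and 16 of them lie to the right of 0, and in MM minus CC none is filled.

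The shared shift of the members was set beside that of other bright features. The brightest 10% of features in liver (1110 features) had a median M minus C of -0.17 in the loess values, beside -0.19 for the ribosomal protein genes, and -0.18 beside -0.18 with position removed. The medians of the members and of these bright features were -0.039 and -0.062 in the authors' value table, -0.019 and -0.075 in the scanner software's log ratio, and 0.050 and 0.027 after median centring, where 49 of 73 members were above 0. The direction of the members' median thus flipped under median centring. The median over all features moved too, from -0.029 in the loess values to 0.065, with 64.5% above 0. Across these 6 ways of processing, 23 members were below 0 in each and 4 above 0 in each (Rpl5, Rps7, Rps14 and Rpl17).

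Single genes were followed over the same 6 ways. Rpl36 lay between -0.52 and -0.25 and was called in 5 of the 6 ways, and Rpl28 lay between -0.34 and -0.10 and was called in 4. Rps29 lay between -0.57 and -0.27 and Rpl5 between 0.32 and 0.50, each called in 2. Rps7 lay between 0.36 and 0.67 and was called in 0. In the scanner log ratio, limma called 4 members (Rps29, Rpl36 and Rpl28 lower, Rpl5 higher), all among the 18, where 12.3% of all features were called (7.58% lower and 4.73% higher). The second bright probe of a member had the same sign in 38 of 45 genes (84.4%, all genes 67.1%).

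**Figure D4:**
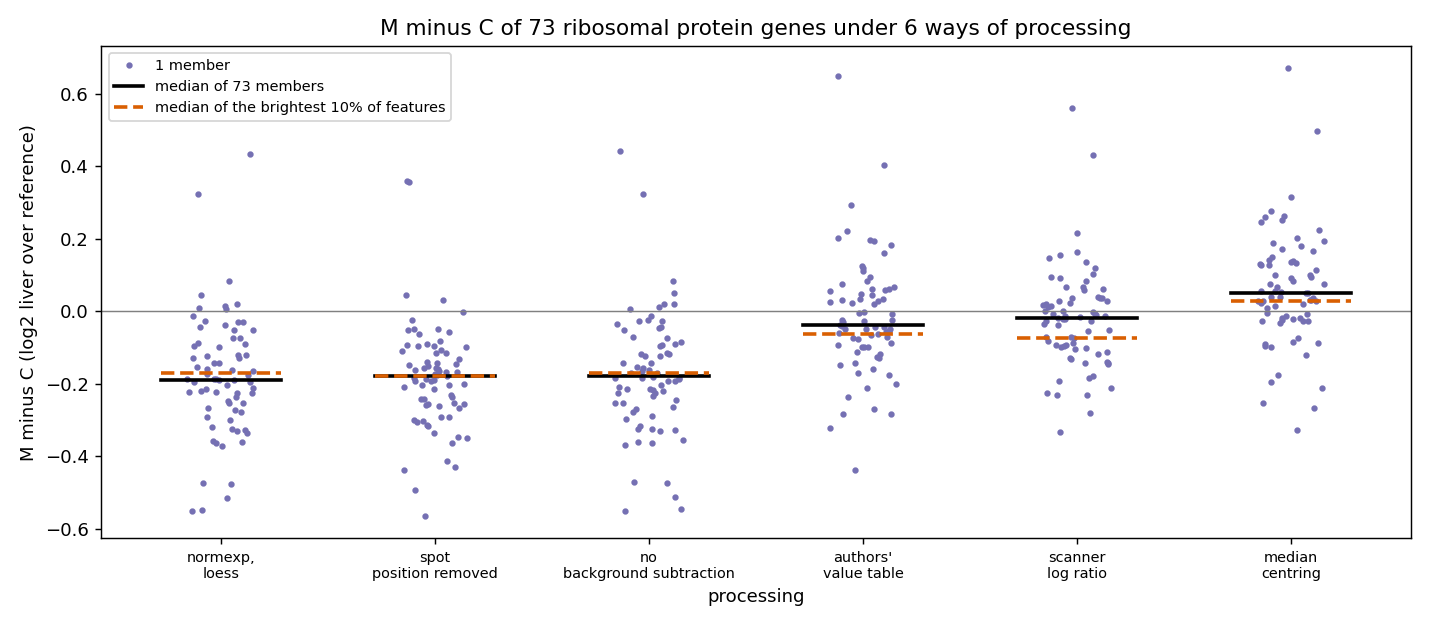
M minus C (log2 liver over reference, vertical axis) of the 73 members, 1 point each, under 6 ways of processing; black bars give the median of the members and dashed orange bars that of the brightest 10% of features. Both medians move together, from about -0.19 in the loess values to 0.05 with median centring, while Rpl5 and Rps7 stay above 0 and Rpl36 and Rps29 below 0 in each.

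Exposure with fostering was examined as MM minus CC. The median was -0.079 (12 above 0 and 61 below; all features -0.025, with 43.9% above 0). It was -0.028 (29 above and 44 below) in the authors' value table and -0.019 (27 and 46) in the scanner log ratio. With median centring it was -0.0045 (36 and 37). All features had medians of -0.0021, -0.038 and 0.035 in the same order. limma called 0 of 73 genes, where 0.902% of all features were called, and 1 gene (11.1% of all features) had an unadjusted p under 0.05. That gene was Rps26 (-0.24 ± 0.109, adjusted p = 0.420), whose liver difference was 0.044 and reference difference 0.28. Rpl28 (-0.16) and Rps29 (-0.33) followed on the lower side and Rpl5 (0.26), Rps4y2 (0.17) and Rps14 (0.069) on the higher. Slide row 1 alone gave -0.21 and row 2 gave 0.046. With position removed the median was -0.089, limma called 0 members where 4.28% of all features were called, and 9 had an unadjusted p under 0.05 (19.8% of all features). The 17 genes called lower in M minus C were all below 0 here, with both comparisons set across the same 2 slides. Of all 73 members 63 were below 0 here, and 42.5% of all features lay above 0.

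**Figure D5:**
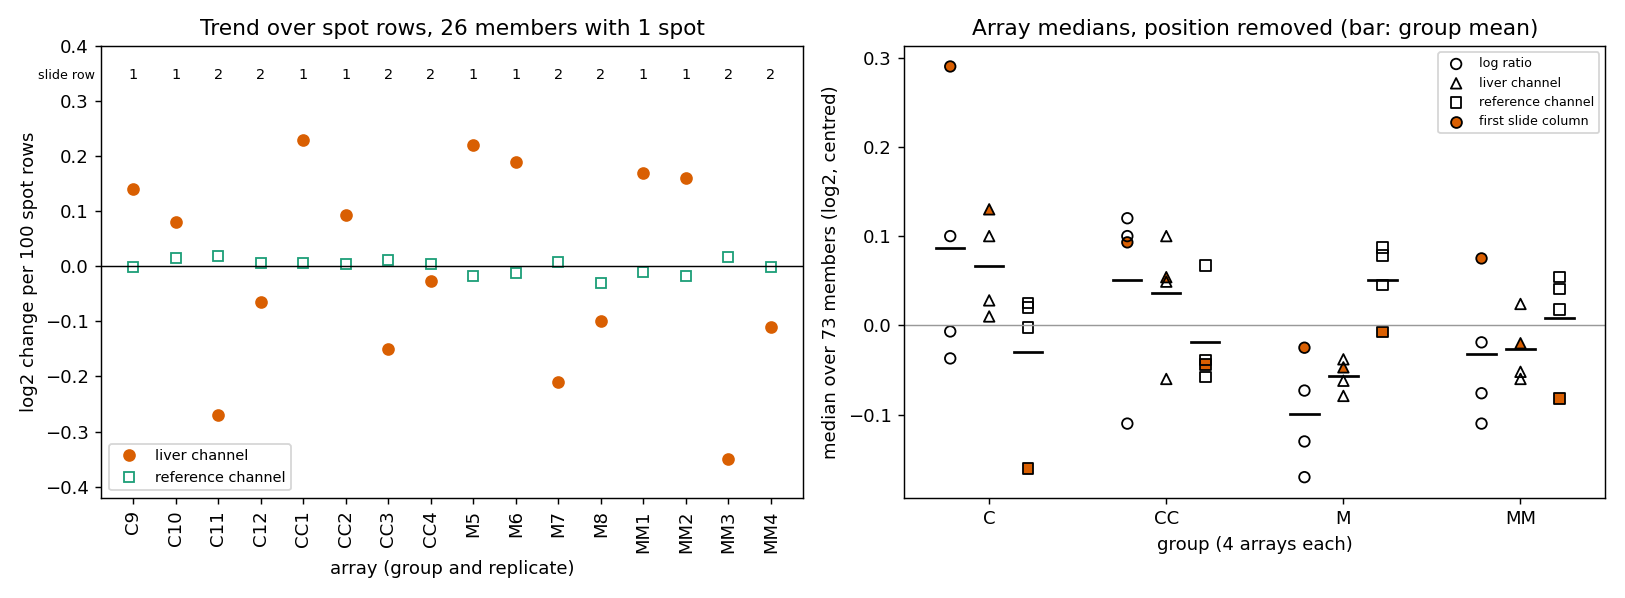
Left: change of the 26 single-spot members per 100 spot rows (log2, vertical axis) on each array, in the liver and reference channels, with the slide row above. Right: median over the 73 members on each array (log2, centred per gene, position removed), by group of 4 arrays, with the group mean as a bar and first-column arrays filled; C replicate 11 is highest in the log ratio (0.29) and lowest in the reference channel (-0.16).

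The ribosomal protein genes varied together from array to array within groups. With position removed, the median correlation between any 2 members over the 16 arrays, after removing group means, was 0.655 in the log ratio (91.3% of pairs above 0), against 0.00409 for all features. The liver channel gave 0.282 and the reference channel 0.638. In the loess values these were 0.413 (71.2% of pairs above 0), 0.154 and 0.65. These pairs share arrays and a bright signal range, so the values are descriptive. In the reference channel all 73 members were lower on the first-column arrays than on the others once row and group were in the fit (median -0.1), where 46.2% of all features were above 0, although limma called none of the members, with 53 of them and 10.3% of all features at an unadjusted p under 0.05. The arrays in question were CC replicate 1, C replicate 11, M replicate 5 and MM replicate 3, on which the scanner's coefficient of variation between spots in the liver channel was 22.4%, 31.3%, 23% and 40%, against 9.54% to 28.8% on the others.

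The other lists were counted in M minus C with position removed. Of 45 translation factors 5 were called higher and 7 lower (median 0.027), of 52 ribosome assembly genes 2 and 4 (-0.054), of 62 mitochondrial ribosomal protein genes 4 and 4 (-0.038), of 20 mTOR genes 1 and 1 (-0.026) and of 13 RNA polymerase I genes 0 and 1 (-0.094), beside a median of -0.03 over all features, of which 4.44% were called higher and 8.82% lower. In the loess values Eif3j, a subunit of the initiation factor that keeps ribosomal subunits apart, was lower at -0.93 ± 0.109 (limma adjusted p = 0.000341) split into 0.15 for liver and 1.09 for the reference. Eif3e, of the same factor, was higher at 0.60 ± 0.0855 (adjusted p = 0.00126), with 0.21 and -0.39. Bop1, which matures the large-subunit RNA, was higher at 0.47 and Gtpbp4, an assembly GTPase, lower at -0.72, with -0.43 and 0.63 in the reference channel and 0.04 and -0.09 in liver. Rack1 was higher at 0.40 ± 0.0925 (adjusted p = 0.0224), with 0.13 in liver and -0.27 in the reference. Also called were Tpt1, of the translation factors, at -0.57 and Mrpl38, of the mitochondrial ribosome, at -0.50. These lay more in liver (-0.35 and -0.39) than in the reference (0.22 and 0.11). Eif2b4 was called at 0.36 and Dkc1 at -0.38, with -0.25 and 0.25 in the reference and 0.11 and -0.13 in liver.

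Markers of liver cells and of red cells were summed on each array for the same comparison. The summed liver channel signal of 9 erythroid markers ran from 134000 to 188000 units in C and from 71400 to 118000 in M, without overlap, and all 6 tested ones were below 0 (median -0.51, position removed, 1 called). In CC and MM the sums overlapped, at 81700 to 158000 and 88500 to 224000. Over 15 hepatocyte markers the sums were 1140000 to 1520000 in C and 1070000 to 1210000 in M, which overlapped, and 14 of 15 were below 0 (median -0.30, 3 called, beside 13.3% of all features). In the liver channel the hepatocyte median was -0.042 with 0 called (28 of all 11092 features). In the reference channel it was 0.18 with 6 called higher. Before position was removed, 4 of the 15 were called higher in the reference channel, beside 25% of all features. Kupffer cell sums, from 12400 to 23200 and from 17400 to 19800, overlapped as well, as did those of endothelial cells (2670 to 4400 and 3280 to 4170), stellate cells (6180 to 6650 and 4980 to 7200) and cholangiocytes (599 to 686 and 566 to 640). The log ratio medians of these 4 lists were -0.045, 0.085, -0.14 and -0.057, with 0, 1, 1 and 0 genes called. Their part in the ribosomal protein values was not tested.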

How the data were processed

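Liver and reference RNA were measured on 16 arrays. Per the file headers the scanner software was Agilent Feature Extraction 11.0.1.1, and the deposited files give median spot and background intensity, a log10 ratio of processed red over green signal, and flags. The authors' deposited value table holds log2 ratios, found by comparison with the scanner values, with its centring unknown. The plan named mean signals, and the medians were used in their place. Median intensity was corrected with normexp (offset 50), log ratios were normalized by loess within arrays, and channels by Aquantile after it. Flagged and control spots were left out and spots averaged per probe. A feature was tested if liver was well above background on 3 of 4 arrays of a group (35% to 41.9% of probes were, per array).

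Groups came from titles and treatments. limma 3.58.1 (R 4.3.3) fitted all groups in one model, with Benjamini-Hochberg adjustment over 11092 features and calls at 0.05. It was tested on simulated data. RefSeq named 18005 of 30367 probes. Genes named whatever their values were Rplp0, Rplp1, Rplp2, Rpsa, Rps27a, Rps3, Rps6, Rps4x, Rps19, Rpl3, Rpl5, Rpl10, Rpl11, Rpl22 and Rpl36. Added to these were called members, up to 6 in a direction by p-value, otherwise the 3 lowest p-values in each direction, and the 4 highest and 4 lowest levels. The values of 1 member and of 1 gene outside the naming rule are not reported here. Members and lists were chosen with earlier results of these data known.

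CC and MM share replicate numbers. Same-numbered arrays had correlated deviations (r = 0.553, 0.157, 0.582 and 0.192), and they also share a slide row, as do different-numbered pairs with r of 0.16 to 0.445. Spot position was removed with a cubic surface per array in spot row and column, fitted to deviations of bright spots from their means, a choice made after seeing the data. Alternatives covered background correction, normalization, probe filter, channels, slide rows and left-out arrays. The number of arrays limits the precision.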

Additional observations from a re-analysis of the deposited data

Results flagged for a closer look

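In 5 of 72 group values checked, 1 array of a group of 4 stood far from the other 3; chance alone flags about 1 in 20 groups. The median over the ribosomal protein genes in the log ratio, centred per gene, was -0.13 on CC replicate 4. In the reference channel it was -0.15 on C replicate 11 and 0.064 on CC replicate 4. Rplp0 stood at -2.25 on C replicate 11 and at -2.38 on MM replicate 3, above the other arrays of each group. Both of these arrays lie in the first slide column.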

How the results depend on the processing

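Values are log2 differences or counts of called members. In M minus C the median of -0.19 became -0.019 with the scanner log ratio, -0.039 in the authors' table, 0.05 with median centring, 0.079 in the reference channel alone, and -0.056 and -0.026 with the liver and the reference channel normalized on their own. Percentages after a count of calls give the share of all features called under the same setting. Its 2 calls (4.11%) became 1 with offset 16 (3.4%), in the authors' table (3.43%) and within the first slide row (1.71%). They became 0 with median centring (4.06%), in the liver channel alone (0.243%) or normalized on its own (0.00902%), within the second slide row (0.0361%) and without the first slide column (2.24%). They became 4 with the scanner log ratio (12.3%), 5 with array weights (7.91%), 13 with slide row as a block (10.6%), 16 with row and first column as terms (12.3%), 18 with position removed (13.3%), and 20 (47.1%) and 31 (48.5%) in the reference channel alone and normalized on its own. In MM minus CC, slide row 1 gave a median of -0.21 and row 2 one of 0.046. Its 0 calls (0.902%) became 2 with slide row as a block (3.78%) or with row and column as terms (4.74%), and 14 (44.6%) and 24 (45.3%) in the reference channel alone and normalized on its own. In CC minus C the median was -0.15 in the second row. In MM minus M it was -0.092 with median centring and -0.042 in the reference channel. The interaction median was -0.052 with offset 16, -0.01 in the authors' table, -0.06 with median centring, -0.053 in the reference channel, -0.1 within slide row 1 and 0.31 within row 2. Between slide rows, median centring gave a median of -0.24, and the 29 calls (42.4%) became 0 with the scanner log ratio (0%), with position removed (1.49%) and in the reference channel alone (1.49%) or normalized on its own (1.4%), and 16 without the first column (22%). Median centring also moved the median over all features, to 0.065 in M minus C and -0.05 in MM minus M. It gave -0.027 over all features for the interaction and -0.054 between slide rows. The cause of these changes was not tested.

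Leaving out 1 array at a time gave medians of -0.072 to 0.037 (CC minus C), 0.033 to 0.1 (MM minus M), 0.031 to 0.15 (interaction), -0.22 to -0.11 (M minus C), -0.13 to -0.046 (MM minus CC) and -0.044 to 0.04 (rows). Calls among the members ran from 0 to 5 in M minus C and from 26 to 32 between rows, and were 0 in the other comparisons. The shares of all features called with an array left out are not given, so these counts describe the members only. With the replicate block, MM minus CC had 0 calls among the members (1.22% of all features) and a median of -0.079. The same 8 arrays without the block also gave 0 calls among the members (0.126% of all features).

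Some named genes reversed. For row 2 minus row 1: Rps19, row 2 minus row 1: Rps15, row 2 minus row 1: Rpl6 and row 2 minus row 1: Rpl24, the scanner log ratio gave -0.057, -0.14, -0.11 and -0.087, the reference channel alone -0.017, -0.043, -0.031 and -0.11, and that channel normalized on its own -0.0003, -0.02, -0.023 and -0.055. For row 2 minus row 1: Rps21, row 2 minus row 1: Rps28, row 2 minus row 1: Rpl19, row 2 minus row 1: Rps16 and row 2 minus row 1: Rpl12, the scanner log ratio gave 0.016, 0.055, 0.12, 0.035 and 0.046. The reference channel gave 0.0022 for Rps21, and normalized on its own 0.033 (Rps21), 0.0022 (Rps28), 0.0037 (Rpl19) and 0.0015 (Rpl12). For row 2 minus row 1: Rplp2 the 3 settings gave -0.013, -0.021 and -0.021, for row 2 minus row 1: Rpl10 they gave 0.12, 0.011 and 0.00033 with 0.05 after position was removed, and for row 2 minus row 1: Rps6 the scanner gave 0.014. The mean of all probes gave -0.18 for row 2 minus row 1: Rpl36. In the reference channel, alone and normalized on its own, M minus C: Rpl36 gave 0.33 and 0.22 and M minus C: Rpl5 gave -0.18 and -0.17, and alone M minus C: Rpl28 gave 0.046 and M minus C: Rps3 gave 0.19. The same pair of settings gave -0.14 and -0.15 for MM minus CC: Rpl5, -0.1 and -0.15 for MM minus CC: Rps14, 0.28 and 0.26 for MM minus CC: Rps26 and 0.18 and 0.11 for MM minus CC: Rps29, and the second gave -0.11 for MM minus CC: Rplp2. Of 4063 values of named genes under alternatives, 3462 kept direction and side of the threshold and 46 reversed. The 46 include values of the reference channel. That channel is the denominator of the log ratio, so its differences enter the ratio with the opposite sign.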
